A study of Homo sapiens with 6 samples.

Results

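The genes described here are 8 components of the p53 response: PPM1D, MDM2, MDM4, ATM, CHEK2, BTG2, CDKN1A and BBC3. They were examined for DNA G-quadruplex (G4) peaks in U2OS cells, a human osteosarcoma line. A G4 is a stack of guanine tetrads formed by a G-rich strand, and its sites in chromatin were mapped by ChIP-seq with BG4, a G4-binding antibody. One group of cells was treated with 1,6-hexanediol (HD), which disrupts condensates held by weak hydrophobic contacts, and the other was untreated (Ctrl). Chromatin was fixed with formaldehyde in all cases, and 2 ChIP libraries and 1 input were made per condition. Neither how much hexanediol was used nor for how long is stated in the sources at hand. For each gene, every peak inside the gene or within 1 kb of either gene end was taken from the 2 peak lists, 1 per condition. The 8 genes, out of 19821 protein-coding ones, held 3 HD peaks and 5 Ctrl peaks, at 5 of the genes. The autosomes and X held 2172 peaks in HD and 3376 in Ctrl. The genes were selected on their peaks in these lists, with both marked and unmarked genes of the pathway in view, so whether they carry a peak is a description and was not tested.

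p53 is a transcription factor that is kept low by the ubiquitin ligase MDM2 and its partner MDM4. After DNA damage the kinase ATM activates the kinase CHEK2, both phosphorylate components of the p53 pathway, and p53 then turns on genes that stop the cell cycle (CDKN1A, BTG2), kill the cell (BBC3) or feed back on p53 (MDM2, PPM1D). The PPM1D product, WIP1, is a phosphatase that removes phosphates from ATM, CHEK2 and p53 and so ends the response. U2OS cells retain wild-type p53 and are known to carry a truncating mutation of PPM1D that stabilises its product, so they are a model with an altered brake on this pathway. Guanine-rich promoters are a common location of G4 signal in chromatin.

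The sites on which the results turn are printed as the RefSeq reference sequence (GRCh38.p14, the assembly of the hg38 files), from 250 bases before to 50 bases after the start site, in the direction of the gene. PPM1D is shown because it had the most fragments, BTG2 because its HD summit fell within a G4 motif, and CDKN1A because it has such a motif under a peak of the Ctrl list alone. A G4 motif was 4 runs of at least 3 G (GGG) separated by loops of 1 to 7 bases of any kind, searched on both strands. Capitals mark this motif in BTG2 and CDKN1A and, in PPM1D, a motif that appears only when loops of up to 12 bases are allowed. The fourth sequence is a stretch of the second MDM2 promoter, where capitals mark 2 adjoining decamers of the p53 response element.
PPM1D, chr17:60599943-60600242, plus strand: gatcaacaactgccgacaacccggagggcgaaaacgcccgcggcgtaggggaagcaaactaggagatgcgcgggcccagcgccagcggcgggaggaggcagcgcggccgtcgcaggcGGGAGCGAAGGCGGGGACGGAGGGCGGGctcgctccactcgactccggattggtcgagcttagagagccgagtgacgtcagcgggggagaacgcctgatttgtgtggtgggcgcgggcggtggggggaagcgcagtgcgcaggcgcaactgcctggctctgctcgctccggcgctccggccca
BTG2, chr1:203305269-203305568, plus strand: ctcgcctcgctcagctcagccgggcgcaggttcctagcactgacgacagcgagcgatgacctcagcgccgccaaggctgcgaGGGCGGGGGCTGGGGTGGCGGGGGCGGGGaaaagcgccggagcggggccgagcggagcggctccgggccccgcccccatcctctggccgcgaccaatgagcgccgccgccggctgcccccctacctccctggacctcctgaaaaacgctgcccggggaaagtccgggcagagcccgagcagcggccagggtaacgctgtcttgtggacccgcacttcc
CDKN1A, chr6:36678464-36678763, plus strand: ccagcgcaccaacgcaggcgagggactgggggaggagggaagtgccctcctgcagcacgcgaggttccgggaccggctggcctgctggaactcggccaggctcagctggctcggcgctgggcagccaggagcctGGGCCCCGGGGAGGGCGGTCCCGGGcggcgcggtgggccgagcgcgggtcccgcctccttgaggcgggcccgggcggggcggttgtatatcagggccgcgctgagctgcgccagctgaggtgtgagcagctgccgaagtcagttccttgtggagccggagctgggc
MDM2, chr12:68808918-68808947, plus strand: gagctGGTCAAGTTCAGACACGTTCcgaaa

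G4 peaks lay at PPM1D, ATM and BTG2 in both lists, and at CHEK2 and CDKN1A in the Ctrl list alone. MDM2, MDM4 and BBC3 had no peak in either list. The counts were thus 3 of 8 genes in HD and 5 of 8 genes in Ctrl, where the same rule marked 9.54% of all protein-coding genes in HD and 13.3% in Ctrl. A peak in both lists marked 6.24% of all protein-coding genes and a peak in the Ctrl list alone marked 7.02%. A peak in either list marked 16.6%, so most protein-coding genes had none. Each condition had 1 list, so no value has a replicate error and none was tested against the spread between libraries. Every one of the 2269 HD peaks has replicate 1 in its name, while the labels assign the list to both HD libraries, and which of these it rests on is not stated. The HD track was deeper, with 27539 ChIP fragments per Mb against 19603 in Ctrl, and a base of the genome was covered on average by 5.51 fragments in HD and 3.74 in Ctrl. Levels below are therefore given as the number of fragments over the summit (the highest point of a peak) divided by this mean coverage, called the mean pileup. Fragment numbers printed alone are not scaled for depth and do not compare the conditions. Intervals are exact 95% Poisson intervals and cover counting error only.

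Among the regulators of p53, PPM1D (gene ID 8493, chromosome 17, 60600193 to 60666280) had by far the most fragments of the 8 genes. Its summit held 84 fragments (interval 67.0 to 104) in HD and 63 fragments (48.4 to 80.6) in Ctrl. In relation to the mean pileup these were 15.2 times (12.2 to 18.9) in HD and 16.9 times (13 to 21.6) in Ctrl. These intervals did not overlap those of any other of the 8 genes with a peak in the same list. The HD to Ctrl ratio of this level was 0.904, with an exact conditional binomial interval of 0.644 to 1.27 for counting error, so a difference between the conditions was not detectable at this depth. The HD peak (60599992 to 60600289) and the Ctrl peak (60599956 to 60600257) covered the start site and shared 266 bp, which is 89.3% of the HD peak and 88.1% of the Ctrl peak. The summit lay 64 bp before the start site in HD and 83 bp before it in Ctrl, a distance of 19 bp between them. No other gene of the annotation had an end within 1 kb of either peak.

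The local input at PPM1D was high in both conditions, and against this input PPM1D no longer led the genes. The caller's expectation from input at the summit was 3.05 times the genome-wide expectation in HD and 2.48 times in Ctrl, against a median over all peaks of 1.37 in HD and 1.44 in Ctrl. In HD it rested on 12 input fragments (6.20 to 21.0) in a window of the fragment length, and in Ctrl on 45 input fragments (32.8 to 60.2) in a window of 1 kb. Set against the local input, PPM1D had 5.0 times (3.99 to 6.19) as many fragments in HD and 6.80 times (5.23 to 8.71) in Ctrl. The counting error of the input itself is not part of these intervals. By this measure 61.0% of all HD peaks and 89.3% of all Ctrl peaks were lower, whereas by the mean pileup 90.7% of HD peaks and 91.1% of Ctrl peaks were lower. The HD to Ctrl ratio by local input was 0.735 (0.524 to 1.04).

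**Figure D1:**
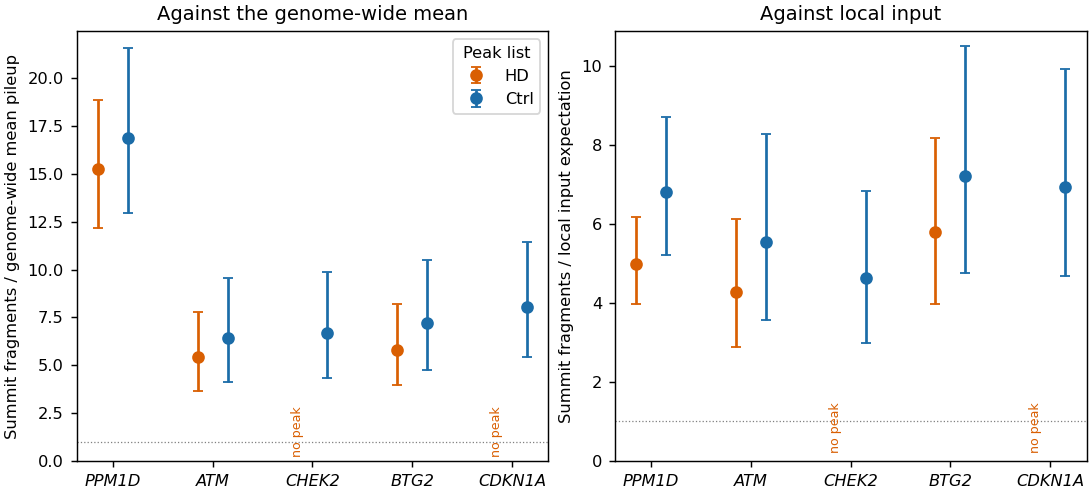
ChIP fragments at the summit of each marked gene, divided by the genome-wide mean pileup (left) or by the local input expectation (right), in the HD list (orange) and the Ctrl list (blue), with exact 95% Poisson intervals for counting error. PPM1D stands at 15.2 in HD and 16.9 in Ctrl on the left and at 5.0 and 6.80 on the right, where its intervals overlap those of the other genes. At BTG2 the right panel uses the genome-wide expectation, the lowest the caller allows.

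High input was not limited to the PPM1D promoter. Within 2 Mb of the PPM1D start there were 6 other HD peaks and 18 other Ctrl peaks, and the input expectation was above the genome-wide value at all of them. It was 1.85 to 3.05 times the genome-wide value (median 2.37) at the HD peaks and 1.97 to 2.97 times (median 2.28) at the Ctrl peaks. The caller takes the largest of several backgrounds with the genome-wide one as the lowest, so this ratio cannot fall below 1. Over all peaks, only 13.2% in HD and 16.1% in Ctrl were at the genome-wide value, so an excess alone is common. Where the expectation came from a 10 kb window, that window held 365 to 461 input fragments at 2 HD peaks and 357 to 445 at 10 Ctrl peaks, against 197 per 10 kb genome-wide in HD and 182 in Ctrl. A 10 kb window sets the expectation only where it is the largest background, so these windows exceed the genome-wide value by selection. PPM1D had more fragments than each of these neighbouring peaks in both lists. Against local input, its value exceeded 5 of the 6 in HD, which ran from 2.98 to 5.40 times, and all 18 in Ctrl, which ran from 3.13 to 5.96 times. The part of the raised input in the fragment number at PPM1D was not tested beyond these values.

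**Figure D2:**
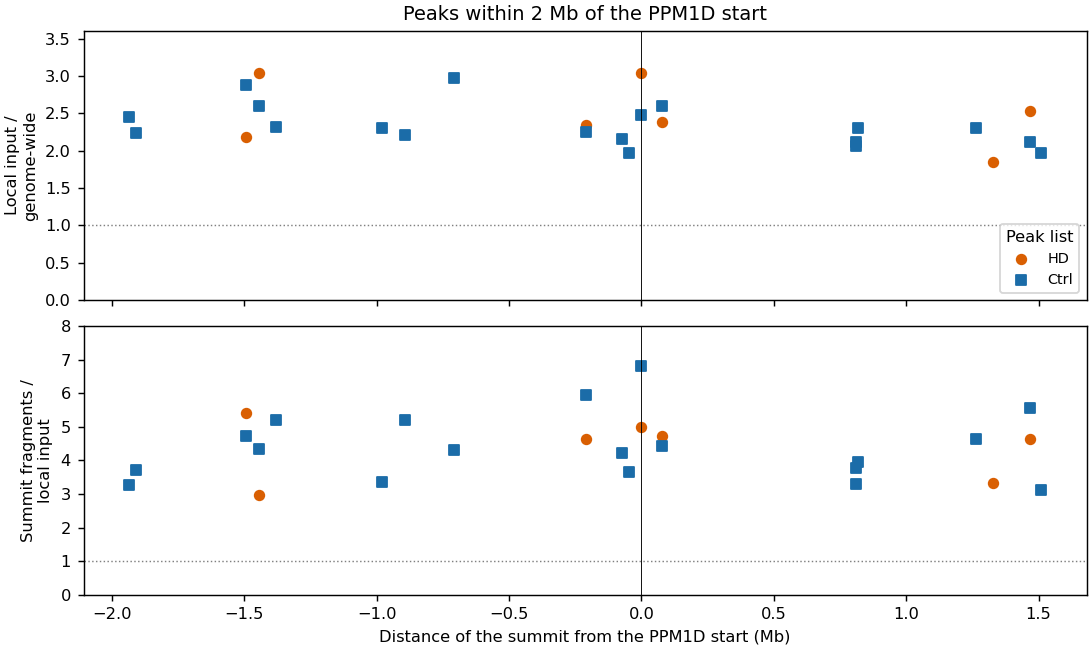
Peaks within 2 Mb of the PPM1D start by distance of the summit in Mb, in the HD list (orange circles) and the Ctrl list (blue squares), with the local input expectation relative to the genome-wide one above and the fragments relative to local input below. The input stayed between 1.85 and 3.05 times the genome-wide value at all HD peaks shown and between 1.97 and 2.97 times at all Ctrl peaks.

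The other 2 regulators had no peak. At MDM2 (chromosome 12, 68808172 to 68850686), the ligase that marks p53 for degradation, the nearest peak was 7913 kb away in HD and 8215 kb away in Ctrl. At MDM4 (chromosome 1, 204516406 to 204558120), the relative of MDM2 that holds p53 inactive, these distances were 653 kb in HD and 727 kb in Ctrl. Fragment numbers at sites without a call were not analysed here. MDM2 has 4 listed start sites in 2 clusters, and the GC content of its promoter windows was 74.7% at the first cluster and 59.3% to 59.7% at the second. The window of MDM4 had a GC content of 52.7%, which exceeded that of 24.3% of protein-coding windows.

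Of the damage kinases, ATM had a peak of few fragments in both lists and CHEK2 had one in Ctrl only. The ATM summit (gene ID 472, chromosome 11, 108223067 to 108369102) held 30 fragments (20.2 to 42.8) in HD and 24 (15.4 to 35.7) in Ctrl. That was 5.44 times the mean pileup (3.67 to 7.77) in HD and 6.42 times (4.11 to 9.55) in Ctrl, with an HD to Ctrl ratio of 0.848 (0.479 to 1.52). The levels in the conditions were thus within each other's intervals. The summits lay 229 bp before the first ATM start site in HD and 240 bp before it in Ctrl, 11 bp apart. Both peaks also lay within 1 kb of an end of NPAT, a coactivator of histone genes whose gene adjoins ATM, so the signal cannot be assigned to 1 of these genes. The HD peak (108222711 to 108223036) ended 31 bp before the ATM gene, whereas the Ctrl peak (108222735 to 108223079) reached 12 bp past the start site.

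At CHEK2 (gene ID 11200, chromosome 22, 28687742 to 28741834) the Ctrl peak (28742348 to 28742695) held 25 fragments (16.2 to 36.9), which is 6.69 times the mean pileup (4.33 to 9.87). The peak began 514 bp beyond the upper gene end and its summit lay 646 bp before the start site, so it was the farthest from its gene of the peaks counted. Where a gene had no peak in a list, the nearest peak of that list was at least 11.3 kb away, the distance at BBC3 in Ctrl. The CHEK2 peak also lay within 1 kb of an end of HSCB, a gene of iron-sulfur cluster assembly. The nearest HD peak was 140 kb from it. An equal share of the deeper HD track would have been 36.9 fragments (23.9 to 54.4, for the Ctrl counting error only). HD peaks with an input expectation within a factor of 1.25 of that at the CHEK2 Ctrl peak were called from 23 fragments upward, with a median of 37. The HD input at this site is not known, and the reason for the missing call was not tested. A missing call was not rare at this level, since of 913 Ctrl peaks with fragment numbers within 10% of that of CHEK2, 33.3% overlapped an HD peak.

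Among the p53 target genes, BTG2 had a peak in both lists, CDKN1A in Ctrl alone and BBC3 in neither. BTG2 (gene ID 7832, chromosome 1, 203305519 to 203309602), an antiproliferative protein that recruits the deadenylase of messenger RNAs, had 32 fragments (21.9 to 45.2) in HD and 27 (17.8 to 39.3) in Ctrl. These were 5.81 times the mean pileup (3.97 to 8.20) in HD and 7.22 times (4.76 to 10.5) in Ctrl, with an HD to Ctrl ratio of 0.804 (0.466 to 1.39). At BTG2 the caller used its genome-wide expectation, the lowest it allows, in both lists, so the same values stand for local input. Whether the input there lies below this floor is not known. The deposited fold and p of the Ctrl peak also allowed 29 fragments within the tolerance, at 1.09 times the genome-wide expectation, which would be 7.76 times the mean pileup and 7.11 times local input. The 27 fragments used differed less from the deposited −log10 p (by 1.0e-05, against 0.0033). Against the caller's expectation, here the floor, BTG2 stood above 82.2% of all HD peaks and 92.2% of all Ctrl peaks. By the mean pileup it stood above 26.2% of HD peaks and 45.7% of Ctrl peaks. The order of BTG2 and PPM1D thus turned with the background used, and against local input their intervals overlapped in both lists. The HD peak (203305280 to 203305496) lay wholly within the Ctrl peak (203305267 to 203305545). An end of BTG2-DT, a divergent noncoding gene, was within 1 kb of both peaks.

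The CDKN1A peak of the Ctrl list (chromosome 6, 36678428 to 36678737) covered the listed start site of this gene (gene ID 1026, 36676463 to 36687332), whose product p21 inhibits cyclin-dependent kinases. Its summit held 30 fragments (20.2 to 42.8), which is 8.03 times the mean pileup (5.42 to 11.5) and 6.95 times local input (4.69 to 9.92), and lay 82 bp before the start site. The annotated gene reaches farther than this start site, so the summit was 2169 bp inside the lower gene end and the peak was not within 1 kb of either end. DINOL, a noncoding gene of the same locus, has an end within 1 kb of the peak. The nearest HD peak was 131 kb away, and the HD list gave no call at CDKN1A. An equal share of the HD track would have been 44.2 fragments (29.8 to 63.2, for the Ctrl counting error only). HD peaks with an input expectation like that of the Ctrl peak were called from 20 fragments upward, with a median of 32. The HD input at this site is not known, and the reason for the missing call was not tested. Of 881 Ctrl peaks with fragment numbers within 10% of that of CDKN1A, 45.2% overlapped an HD peak. At BBC3 (chromosome 19, 47220824 to 47232860), which encodes the cell death protein PUMA, the nearest peak was 23.7 kb away in HD and 11.3 kb away in Ctrl.

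In HD, the order of the levels over the mean pileup was PPM1D, BTG2 and ATM, and in Ctrl it was PPM1D, CDKN1A, BTG2, CHEK2 and ATM. Apart from PPM1D, all neighbours in these orders had overlapping intervals. Against local input the order in HD was BTG2, PPM1D and ATM, and in Ctrl it was BTG2, CDKN1A, PPM1D, ATM and CHEK2, and all neighbours had overlapping intervals. BTG2 enters this order with the genome-wide floor in place of a local value. The HD to Ctrl ratios of PPM1D, ATM and BTG2 by mean pileup, 0.904, 0.848 and 0.804, were close to the median of 0.889 (quartiles 0.771 and 1.02) over 839 pairs of overlapping peaks at ends of protein-coding genes. In 72.6% of those pairs the ratio was below 1. By local input the HD to Ctrl ratios were 0.735 at PPM1D, 0.771 at ATM and 0.804 at BTG2, all below the median of 0.912 (quartiles 0.754 and 1.11) over the same pairs. Of the pairs, 22.8% were lower than PPM1D by this measure, 27.7% lower than ATM and 31.9% lower than BTG2, while by mean pileup these shares were 52.9% for PPM1D, 40.05% for ATM and 31.6% for BTG2. Where the 3 genes stood among the pairs thus moved with the background used. The inputs were unlike: at PPM1D 12 fragments over the fragment length in HD and 45 over 1 kb in Ctrl. At ATM they were 5 in HD and 4 in Ctrl, and BTG2 had the genome-wide floor in both. The counting error of the input is not part of these ratios. Pairs called in both lists had to pass the threshold in each, so these ratios leave out sites lost in one list.

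**Figure D3:**
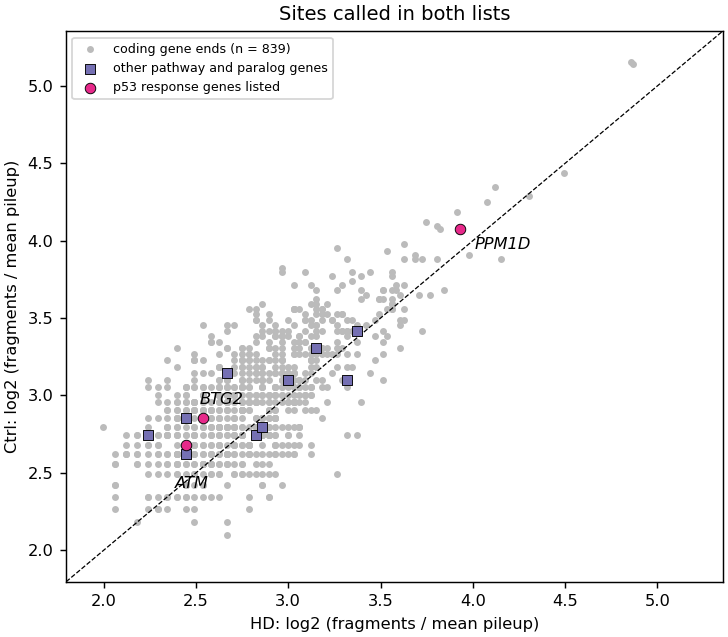
Levels at sites called in both lists, as log2 of fragments over the mean pileup in HD (horizontal) and in Ctrl (vertical), with 839 pairs of peaks at coding gene ends in grey, PPM1D, ATM and BTG2 in pink and 10 other pathway and paralog genes in violet. PPM1D lies toward the upper end of the cloud, ATM and BTG2 lie below its median on both axes, and most points lie above the dashed line of equal levels.

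By level in the 2 lists, the genes most like PPM1D were HIC2, AFG3L2, LOC107987020, STYX and MAP3K9, with distances of 0.11, 0.11, 0.13, 0.18 and 0.19 in log2 units. HIC2 had 78 fragments in HD and 63 in Ctrl, and AFG3L2, a mitochondrial protease, had 83 in HD and 68 in Ctrl. Those most like BTG2 were LINS1, YWHAQ, STAG1, LOC124906892 and TMEM186, at distances of 0.04 to 0.05. Likeness was the Euclidean distance between log2 levels over the mean pileup in HD and Ctrl, over 839 pairs.

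The G4 motif with loops of up to 7 bases was present in the promoter windows of 2 of the 8 genes, BTG2 and CDKN1A, and every peak at these start sites covered it. All 8 genes were matched to the promoter table, with 12 windows. The motif was in 2 of these 12 windows, against 30.5% of 22132 windows of protein-coding genes. In BTG2 it spanned positions -168 to -140 from the start site, with its G runs on the gene strand. The HD summit, 167 bp before the start site, fell within this motif, and the Ctrl summit, 108 bp before it, lay 32 bp from it. The summits were 59 bp apart, a distance that exceeded those of 60.5% of the 839 pairs at gene ends, whose median was 45 bp. In CDKN1A the motif spanned positions -116 to -92, also on the gene strand, and the Ctrl summit lay 10 bp from it. The windows of PPM1D and ATM that hold a summit had no such motif, although PPM1D had 12 runs of at least 3 G. With loops of up to 12 bases PPM1D had a motif at positions -133 to -106, covered by both peaks, with the HD summit 42 bp and the Ctrl summit 23 bp away from it. Such a motif also appeared in windows of MDM2 and CHEK2, with no peak over them, and was present in 45.5% of protein-coding windows. A match is a description of the letters and shows no folding.

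GC content of the promoter windows was 71% at PPM1D, 73.3% at BTG2 and 74.3% at CDKN1A, and 64.3% in the window of the first ATM start site. The median was 68.7% over protein-coding windows with an HD peak, 68.7% over those with a Ctrl peak and 61.3% over those with no peak. The motif with loops of up to 7 bases was in 38.9% of protein-coding windows with an HD peak, in 39.3% of those with a Ctrl peak and in 29.5% of those with none. The first window of MDM2 had 74.7% GC and no peak. At BBC3 the window had 48% GC.

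**Figure D4:**
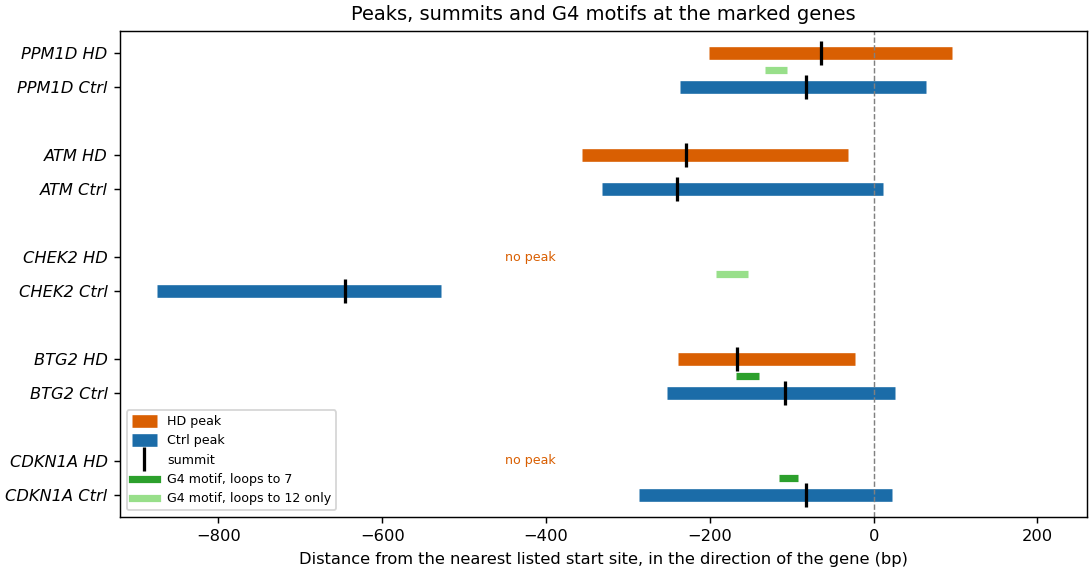
Position of HD peaks (orange) and Ctrl peaks (blue) at the 5 marked genes, in bp from the nearest listed start site in the direction of the gene, with summits as black ticks and G4 motifs of the promoter window in green (pale green where only loops of up to 12 bases give one). Summits lie 64 to 240 bp before the start site at PPM1D, ATM, BTG2 and CDKN1A, and 646 bp before it at CHEK2.

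A p53 response element (2 decamers of 10 bases with a spacer of 0 to 13 bases, the fixed C and G of each decamer present and at most 2 mismatches) was searched in the same windows. It was found in MDM2 alone, in the windows of its second start cluster, where the printed element had no spacer and 2 mismatches. It spanned positions -94 to -75 from the first start site of that cluster, and no peak of either list was near it. Counted by window and not by gene, the element was in 2.70% of protein-coding windows, in 2.23% of those with an HD peak and in 2.64% of those with a Ctrl peak. No match in the other 7 genes says only that these letters are not within the windows searched.

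Another 85 genes of the pathway and of the families of PPM1D, BTG2, CDKN1A and BBC3 carried peaks at 17 genes in HD (20%) and at 21 genes in Ctrl (24.7%), against 9.54% and 13.3% of all protein-coding genes. The lower number in HD turned when the Ctrl list was shortened to the length of the HD list by −log10 q, with 17 genes in HD and 16 in Ctrl, against 9.54% of all protein-coding genes in HD and 9.32% in Ctrl. In the full lists, 11 of the 85 genes were marked in both (12.9%), against 6.24% of all protein-coding genes. HD alone marked 6 of the 85, against 3.3% of all protein-coding genes. Ctrl alone marked 10 of the 85, against 7.02%, and 58 had none. A peak in either list was at 27 of the 85, against 16.6% of all protein-coding genes. These genes were listed from their roles and not from their peaks, but with results of these data known, and they were not matched to other genes on expression, GC content or length. Over the 10 genes with overlapping peaks, the HD to Ctrl ratio by mean pileup ran from 0.705 (TP53BP1) to 1.17 (PPM1A), with a median of 0.915, and was below 1 in 7. By local input it ran from 0.598 (GADD45A) to 1.27 (TOB1), with TP53BP1 at 0.706 and PPM1A at 1.03. Which genes stood at the ends thus moved with the background used.

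Relatives of PPM1D were marked at 5 of 12 genes in HD (41.7%) and 4 of 12 in Ctrl (33.3%). The shares over all protein-coding genes were 9.54% in HD and 13.3% in Ctrl, and no group was tested against them. PPM1A, a phosphatase of the same family, had 55 fragments in HD and 32 in Ctrl, an HD to Ctrl ratio by mean pileup of 1.17 (0.741 to 1.86). By local input this ratio was 1.03 (0.655 to 1.65). PPM1B had 30 fragments in HD and 27 in Ctrl, a ratio by mean pileup of 0.753 (0.433 to 1.32). PPM1J had 39 in HD and 25 in Ctrl, a ratio of 1.06 (0.624 to 1.82). PPM1F was marked in both lists by different peaks 14.4 kb apart, with 51 fragments at its start site in HD and 26 inside the gene in Ctrl. PPM1K had 31 fragments in HD and no Ctrl peak. The peaks at PPM1B, PPM1J and PPM1K also lay within 1 kb of an end of a divergent noncoding gene of the same name.

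Targets of p53 that stop the cell cycle were marked at 3 of 9 genes in HD (33.3%) and 4 of 9 in Ctrl (44.4%). This compares with 9.54% and 13.3% of all protein-coding genes. GADD45A, a growth arrest protein, had 35 fragments in HD and 33 in Ctrl, an HD to Ctrl ratio by mean pileup of 0.719 (0.434 to 1.19). By local input the ratio was 0.598 (0.361 to 0.992), without the counting error of the input. That input was 6 fragments over the fragment length in HD and 23 over 1 kb in Ctrl. SFN, the checkpoint protein 14-3-3 sigma, had 30 fragments in HD and 23 in Ctrl, a ratio by mean pileup of 0.885 (0.497 to 1.59). Its summits lay 2075 bp after its start site in HD and 2093 bp after it in Ctrl, beyond the far end of the gene. The kinase gene PLK3 had 44 fragments in HD and 32 in Ctrl at its start, a ratio by mean pileup of 0.932 (0.578 to 1.52). It had another Ctrl peak of 22 fragments 0.191 kb from the HD peak. E2F7, a repressor of cell cycle genes, had 20 fragments in Ctrl alone.

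Targets in cell death were marked at 1 of 15 genes in HD (6.67%) and 5 of 15 in Ctrl (33.3%). Targets in repair and metabolism were marked at 2 of 13 in HD (15.4%) and 4 of 13 in Ctrl (30.8%). Over all protein-coding genes these shares were 9.54% in HD and 13.3% in Ctrl. HD alone marked 3.3% of all protein-coding genes and Ctrl alone 7.02%, and the groups were not tested against these shares. FDXR, a mitochondrial reductase, was the one cell death target of the list marked in both, with 49 fragments in HD and 37 in Ctrl. Its HD to Ctrl ratio by mean pileup was 0.898 (0.574 to 1.42). BAX, APAF1, AEN and PIDD1 were marked in Ctrl alone, with 21, 22, 27 and 17 fragments, and the APAF1 peak also lay within 1 kb of an end of IKBIP and the PIDD1 peak within 1 kb of an end of RPLP2. RRM2B, a ribonucleotide reductase subunit induced by p53, had the most fragments of the 85 genes, with 57 in HD and 40 in Ctrl, which is 10.3 times the mean pileup in HD and 10.7 times in Ctrl. TIGAR, a regulator of glycolysis, had 34 fragments in Ctrl alone, POLH, a translesion polymerase, 19 and SCO2 25. The POLH peak also lay within 1 kb of an end of XPO5, and the SCO2 peak within 1 kb of ends of NCAPH2 and TYMP. DDB2, a damage recognition protein, had 29 in HD alone.

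Damage signalling genes were marked at 3 of 14 in HD (21.4%) and 2 of 14 in Ctrl (14.3%). For these and the groups below, the shares over all protein-coding genes were 9.54% in HD and 13.3% in Ctrl. HD alone marked 3.3% of all protein-coding genes and Ctrl alone 7.02%. TP53BP1, a scaffold at DNA breaks, had 26 fragments in HD and 25 in Ctrl, in peaks also within 1 kb of an end of MAP1A. Its HD to Ctrl ratio by mean pileup was 0.705 (0.391 to 1.27). KAT5, an acetyltransferase that acts on ATM, and the nuclease gene MRE11 were marked in HD alone with 31 and 27 fragments, and EP300, a coactivator of p53, in Ctrl alone with 24. The MRE11 peak also lay within 1 kb of an end of ANKRD49. Genes of p53 turnover were marked at 0 of 9 in HD and 1 of 9 in Ctrl, TRIM24 with 21 fragments. TOB1, a relative of BTG2, had 40 fragments in HD and 26 in Ctrl, a ratio by mean pileup of 1.04 (0.621 to 1.78). TOB2 had 33 fragments in HD alone, with the nearest Ctrl peak 3.7 kb from that HD peak. Thus 2 of 5 relatives were marked in HD and 1 of 5 in Ctrl. Among 6 other BH3-only genes, relatives of BBC3, BAD alone was marked, by 2 HD peaks of 35 and 40 fragments at its opposite ends, and the first of these also lay within 1 kb of ends of PLCB3 and GPR137. E2F7, PIDD1, POLH, DDB2, MRE11 and TOB2 were named after their values were seen. The inhibitor genes CDKN1B and CDKN1C had no peak in either list.

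**Figure D5:**
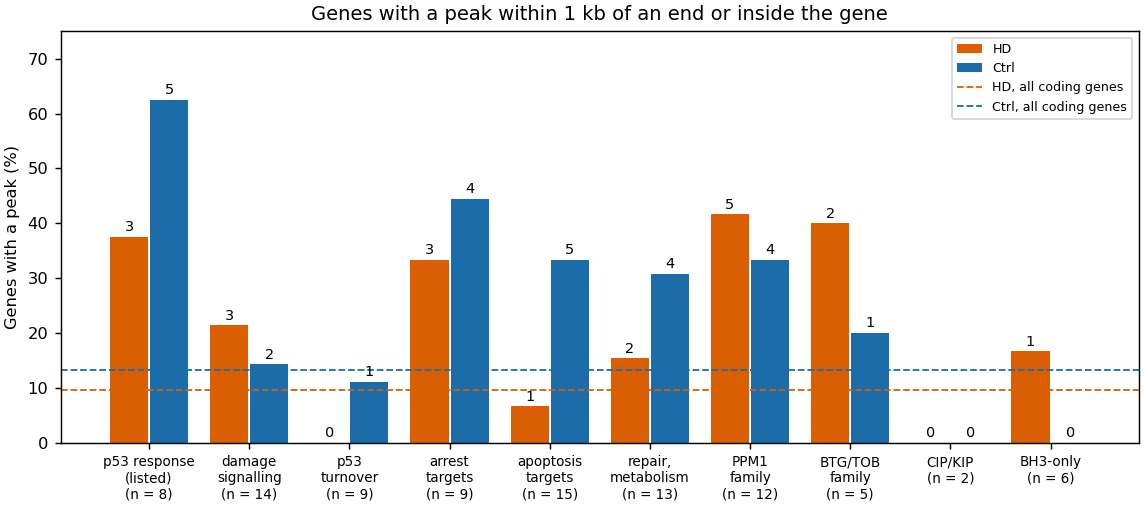
Share of genes with a peak within 1 kb of an end or inside the gene, in percent, for the 8 genes described and for 9 groups of other pathway and paralog genes, in HD (orange) and Ctrl (blue), with the number of genes above each bar and dashed lines at the shares over all protein-coding genes, 9.54% in HD and 13.3% in Ctrl. The groups hold 2 to 15 genes, so 1 gene moves a bar by 6.67 percentage points or more.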

How the data were processed

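BG4 ChIP-seq peaks of U2OS cells, treated with 1,6-hexanediol or untreated, were analysed. Per the submitters' processing notes, FastQC 0.11.9, Bowtie2 2.5.0, SAMtools, MACS2 2.2.7.1 and the build hg38 were used, without their settings. The authors deposited 1 list of peaks for each condition, assigned by the labels to both of its ChIP libraries, with a fold enrichment (a ratio), −log10 p, −log10 q, a score and a summit for each peak. The score was not used. The lowest deposited −log10 q was 1.30 in HD and 1.31 in Ctrl. Per the labels' protocols, cells were fixed with formaldehyde at 1% for 10 min.

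In MACS2 the fold is pileup over expectation with 1 added to each, and p is a Poisson tail, so fold and p together gave the whole number of ChIP fragments and the expectation from input at each summit. A whole number matched the deposited −log10 p within 0.01 at all 2269 HD and 3507 Ctrl peaks, and 4.19% of HD peaks and 3.36% of Ctrl peaks had more than 1 match, of which the closest was taken. The step was tested on simulated data. Genes came from the RefSeq table of GRCh38.p14, without scaffolds, and promoter sequences and start sites from RefSeq. The table gives no exons, so none are stated. The members and lists were chosen with earlier results of these data known. Genes named were all 8 members, other pathway genes marked in both lists, 10 further marked ones by −log10 q, genes sharing a member's peak, and the 5 nearest in level to PPM1D and to BTG2, while 6 more marked genes, CDKN1B, CDKN1C and the genes with an end near other named peaks were named after their values were seen. Python 3.11.15, numpy 2.4.6 and scipy 1.17.1 were used.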

Additional observations from a re-analysis of the deposited data

How the results depend on the processing

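Of 55 alternatives run, 53 left the result within 1.5 times its count or within its counting interval. For the counts of the 8 genes these were windows of 500 bp and 2 kb, −log10 q of at least 3, equal list lengths, summits in place of peaks, overlap of at least 50% of both peaks, and, chosen after seeing the data, a window of 1 kb around listed start sites. At equal list lengths the 85 other genes were marked at 17 in HD and 16 in Ctrl, against 17 in HD and 21 in Ctrl in the full lists. The change in Ctrl was within 1.5 times although the order of the lists turned. With a window of 2 kb the 85 genes were marked at 17 in HD, 22 in Ctrl and 12 in both, against 11 in both with 1 kb. With 500 bp CHEK2 was no longer counted, and Ctrl marked 4 genes. At gene ends alone, Ctrl marked 4 genes with 1 kb, 3 with 500 bp and 5 with 2 kb, all within the limit. A limit of 1.5 times is thus wide for counts this small, and staying within it says little about them. A G4 motif was in 5 genes when loops of up to 12 bases were allowed, against 2 with loops of up to 7, and a p53 element was in 0 genes at no more than 1 mismatch, against 1 at 2, as these searches differ in strictness. No paired analysis was possible because each condition has 1 peak list and no value per replicate, and for the same reason no replicate could be left out. Depth limits single sites: with 24 to 84 fragments at a summit, the counting intervals of the HD to Ctrl ratios of PPM1D, ATM and BTG2 all include 1.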

Other observations

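The caller's expectation from input followed whole numbers of input fragments in windows of 1 kb or 10 kb at every local expectation tested. These were below 20, more than 2% above the genome-wide value and not whole themselves, 974 in HD and 1474 in Ctrl (100% in each, within 0.02 of a fragment). Whole expectations, read as counts in a window of the fragment length, were left out of this fit, so that reading was not tested. The fragment length was chosen to give the most such fits, 200.2 bp in HD and 190.7 bp in Ctrl, so the fit is no independent check of it. At BTG2 the genome-wide expectation applied in both lists, as it did at 13.2% of all HD peaks and 16.1% of all Ctrl peaks. At CHEK2 the input expectation was 1.44 times the genome-wide one in Ctrl, at CDKN1A 1.15 times in Ctrl, and at ATM 1.27 times in HD and 1.15 times in Ctrl, each resting on 4 or 5 input fragments.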
